A study of Homo sapiens with 16 samples.

Results

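PDGFRA, KIT and KDR are neighbouring genes on the long arm of human chromosome 4, and each encodes a receptor tyrosine kinase. Their contacts were measured by Hi-C, an assay in which cut DNA ends that are close in space are ligated and sequenced, so that each ligated pair counts as a contact. The genome was divided into 20 kb bins numbered through build hg19. The members were the bins overlapping PDGFRA (chr4, 55.095 to 55.164 Mb), KIT (55.524 to 55.607 Mb) and KDR (55.944 to 55.992 Mb), which gave 5, 5 and 3 bins. These are 13 of 154795 bins in all, and their contacts were read over the 150 bins of chr4 from 54 to 57 Mb, all of which were present. The cells were K562, an established human leukaemia line, fixed with formaldehyde. Chromatin was cut in the nuclei with the restriction enzyme HindIII for 0.25, 1, 3 or 12 h, with 2 replicate libraries at each time, and all groups shared every other step that the labels give. The results rest on the second sequencing run of each library, and the first run, deposited in 50 kb bins, served as an alternative.

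The 3 receptors sit in the cell membrane and bind a ligand outside the cell, which brings receptor molecules together so that their kinase domains phosphorylate each other. PDGFRA binds platelet-derived growth factors and acts in mesenchymal cells. KIT binds stem cell factor and is needed by blood stem and progenitor cells, mast cells, melanocytes and germ cells. KDR, also named VEGFR2, binds vascular endothelial growth factors and is the main receptor through which endothelial cells respond to them. The genes arose by duplication of an ancestral receptor gene. Mutations of KIT or PDGFRA drive gastrointestinal stromal tumours, and PDGFRA is fused to the nearby gene FIP1L1 in some chronic eosinophilic leukaemias. In the RefSeq order of genes, LNX1, CHIC2 and GSX2 lie before PDGFRA, no other gene of that list lies between the 3 receptors, and SRD5A3, TMEM165 and CLOCK follow KDR. PDGFRA and KIT are read towards higher coordinates and KDR towards lower ones. PDGFRA bin 1 (from 55080001) and KIT bin 1 (from 55520001) therefore hold the 5′ ends of their genes, and KDR bin 3 (from 55980001) holds that of KDR.

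Digestion decides where DNA ends can be joined, so the gene starts were searched for the HindIII site AAGCTT, which reads the same on both strands. The RefSeq promoter sequences of build GRCh38.p14 held 2 starts for PDGFRA and 1 each for KIT and KDR. None of the 4 windows, 250 bases before to 50 after the start, held AAGCTT, against 5.84% of 35116 human promoter windows that did. The 250 bases before each start are shown because they mark the gene ends whose contacts are compared, with each CG in capitals.
PDGFRA start 1, chr4:54229043-54229292, plus strand: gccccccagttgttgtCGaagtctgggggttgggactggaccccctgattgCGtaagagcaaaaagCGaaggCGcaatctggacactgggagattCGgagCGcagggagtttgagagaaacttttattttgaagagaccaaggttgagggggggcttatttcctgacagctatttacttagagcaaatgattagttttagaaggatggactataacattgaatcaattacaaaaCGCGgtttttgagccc
PDGFRA start 2, chr4:54233710-54233959, plus strand: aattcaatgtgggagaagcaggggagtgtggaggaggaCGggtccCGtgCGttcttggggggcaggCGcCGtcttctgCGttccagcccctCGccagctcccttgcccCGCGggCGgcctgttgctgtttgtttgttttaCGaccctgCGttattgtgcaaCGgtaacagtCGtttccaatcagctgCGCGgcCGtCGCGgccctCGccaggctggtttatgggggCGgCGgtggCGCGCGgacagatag
KIT start, chr4:54657707-54657956, plus strand: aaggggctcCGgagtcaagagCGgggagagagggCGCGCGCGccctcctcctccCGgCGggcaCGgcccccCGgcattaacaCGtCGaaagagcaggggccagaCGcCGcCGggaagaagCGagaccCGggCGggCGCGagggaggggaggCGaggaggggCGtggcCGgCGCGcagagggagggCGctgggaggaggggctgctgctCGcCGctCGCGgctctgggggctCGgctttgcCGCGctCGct
KDR start, chr4:55125596-55125845, minus strand: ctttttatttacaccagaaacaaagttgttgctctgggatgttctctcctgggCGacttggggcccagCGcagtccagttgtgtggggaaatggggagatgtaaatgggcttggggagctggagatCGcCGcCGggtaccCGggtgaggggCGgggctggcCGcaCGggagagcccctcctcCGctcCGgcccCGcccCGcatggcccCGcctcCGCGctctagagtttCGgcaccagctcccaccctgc
The KIT stretch held 34 CG, more than 93.2% of promoters. The stretches of PDGFRA start 2, KDR and PDGFRA start 1 held 25, 17 and 8 CG, more than 78.4%, 61.0% and 43.7% of promoters, whose median was 11. These positions belong to GRCh38 and cannot be set on the hg19 bins, apart from what the gene ends above give. How many HindIII sites each bin holds was not analysed here.

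The second run held 62777251 to 176412222 contacts per library, and 12 h libraries were deeper than the others. The 2 replicates of each time differed by more than sampling noise over the bins of chromosome 4, with a chi-square per degree of freedom of 1.38 to 3.402, the highest at 0.25 h. Nothing in the labels says that replicates came from separate cultures, so p-values measure the spread between these samples, which may be technical. The 1 Mb pair on chromosome 9 from 133 Mb and chromosome 22 from 23 Mb held the most contacts of all pairs between these chromosomes in 8 of 8 libraries, 5194 to 26287 against a median of 2 to 4. This is where the fusion of BCR with ABL1, which defines K562, joins both chromosomes. In the gap of chromosome 4 from 49640001 to 52680000, 152 bins were absent, which places the numbered bins on hg19.

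PDGFRA lay across a strong boundary between chromatin domains. The insulation score is the log2 of the mean balanced contact between the 200 kb to each side of a bin, over the chromosome mean, and low scores are found where contacts from one side rarely reach the other. It averaged -1.13 over the 5 PDGFRA bins, -0.11 over the 5 KIT bins and 0.48 over the 3 KDR bins. In single libraries the PDGFRA mean lay between -1.25 and -1.003, the KIT mean between -0.16 and -0.10 and the KDR mean between 0.41 and 0.51, and the 3 ranges did not overlap. The local minimum fell in PDGFRA bin 2 (chr4:55100001-55120000) with a score of -1.18, and of the 341 boundaries of chromosome 4, 12 had a lower score. The lowest PDGFRA bin was bin 2 in 5 libraries, bin 5 in 2 libraries and bin 4 in 1 library, so the trough was nearly flat over the gene. A second strong boundary lay beyond KDR at 56180001, with a score of -0.84 and 45 lower boundaries on the chromosome. Between them KIT bin 3 held a shallow minimum at 55560001, with a score of -0.19, and the boundary at 55800001 between KIT and KDR scored -0.32. The remaining boundaries of the region lay at 54760001 and 56740001, with scores of -0.41 and -0.37, near the chromosome median of -0.41.

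**Figure D1:**
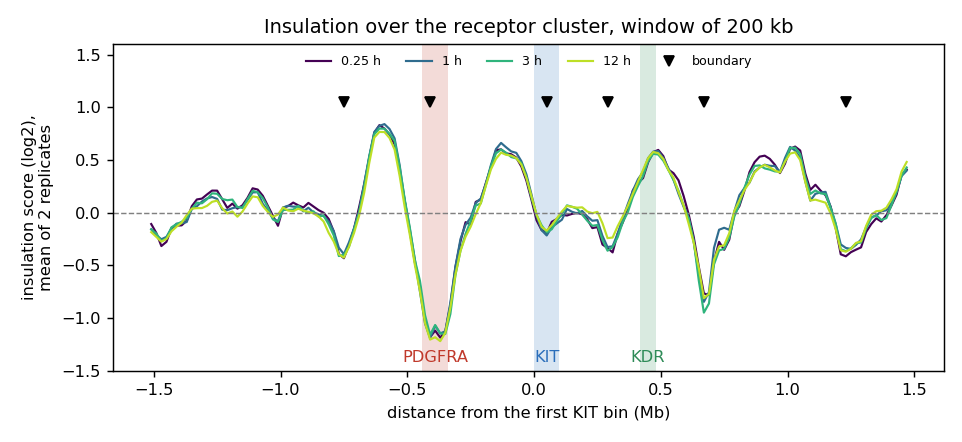
Insulation score (log2, mean of 2 replicates) of the 150 bins from 54 to 57 Mb of chromosome 4 at 4 digestion times, against the distance from the first KIT bin in Mb; shaded bands mark the genes and triangles the 6 boundaries. The PDGFRA bins form the lowest trough at every time, near -1.18, and the lines of the 4 times lie close together.

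The contacts of PDGFRA turned from one side of the gene to the other within its own length. Direction was measured as the percentage of a bin's balanced contact, from 40 kb to 1000 kb away, that lay on the side of lower coordinates. PDGFRA bin 1, with the 5′ end, had 82.2% ± 2.36 (SD, n = 8 libraries) on that side, more than 99.899% of 125269 autosomal bins. The following PDGFRA bins had 63.9% ± 2.90, 52.3% ± 2.45 and 46.3% ± 1.70. PDGFRA bin 5, with the 3′ end, had 31.2% ± 1.40, a value that 2.76% of bins fell below. The 5′ end thus had most of its contact on the side away from KIT and KDR, and the 3′ end on their side. The lowest library of bin 1 stood at 78.9% and the highest of bin 5 at 32.7%, so these bins did not overlap in any of the 8 libraries. At 0.25 h bin 1 had 80.2% and 85.8%, and at 12 h it had 84.3% and 82.2%. The values of these times overlapped. The KIT bins had means of 51.5% to 57.5% and the KDR bins 47.8% to 54.02%, all inside the range from 34.1% to 65.8% that holds the middle 90% of bins. With recovered contacts in place of the balanced signal, bin 1 had 80.8% and bin 5 had 28.7%.

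**Figure D2:**
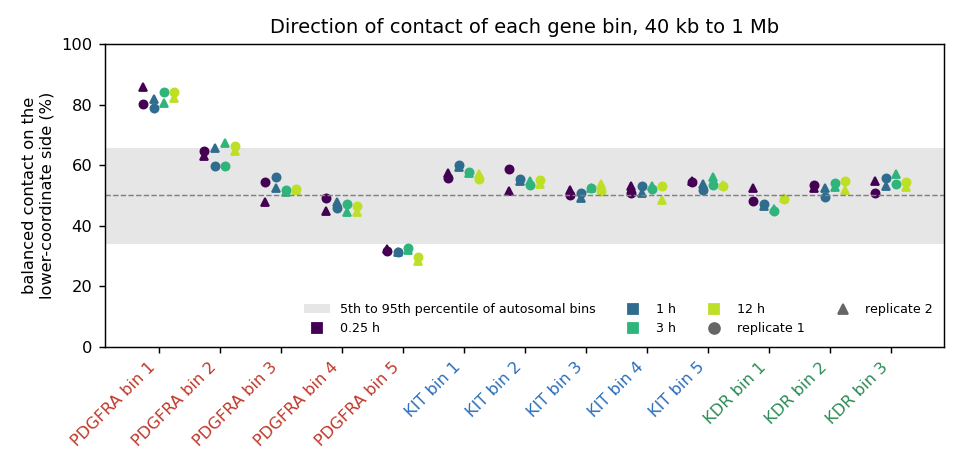
Percentage of balanced contact, from 40 kb to 1000 kb away, on the lower-coordinate side of each of the 13 gene bins, with a point per library (colour, digestion time; shape, replicate); the grey band spans the 5th to 95th percentile of autosomal bins. PDGFRA bins fall from 82.2% in bin 1 to 31.2% in bin 5, while KIT and KDR bins stay inside the band.

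The ends of PDGFRA had high contact with several distant bins, some of them boundaries. Observed over expected is the balanced contact divided by the mean of autosomal bin pairs at the same distance, so a value of 1 is the average. PDGFRA bin 1 met the boundary bin at 54760001, 320 kb away, at 9.87 ± 2.28 times the expected contact (SD, n = 8 libraries), with 18 to 59 contacts per library. That value exceeded 99.99% of 126440 autosomal pairs at this distance. Along the gene the contact with that boundary fell to 4.13 ± 1.11 in bin 2, 2.28 ± 0.566 in bin 3, 1.80 ± 0.563 in bin 4 and 1.051 ± 0.585 in bin 5. The other end of the gene had high contact with boundaries on the opposite side. PDGFRA bin 5 met the boundary between KIT and KDR at 55800001, 640 kb away, at 5.02 ± 0.598 times expected, and the boundary beyond KDR at 56180001, 1020 kb away, at 5.41 ± 0.881 times. Bin 1 met the same 2 boundary bins at 0.792 ± 0.571 and 1.37 ± 1.54 times expected, on 0 to 4 contacts per library. Bins 2, 3 and 4 met 55800001 at 2.03, 2.97 and 3.21 times expected, a steady rise along the gene. With 56180001 they stood at 1.81, 1.15 and 2.78, so bin 3 was lowest there and the rise was not steady. The pairs of bin 5 with both boundaries each exceeded 99.87% of pairs at their distance. The ranges of bin 1 and bin 5 over the 8 libraries did not overlap for any of these 3 boundaries. PDGFRA as a whole also met 2 bins near the start of the region, 54060001 and 54040001, at 4.05 ± 0.682 and 3.63 ± 0.805 times expected, which with 54760001 were its 3 strongest partners at least 100 kb away. Neither of these 2 bins was called a boundary at the prominence of 0.2. However, 54040001 held a local minimum of the insulation score, -0.28, lower than the -0.19 of the boundary in KIT bin 3. Bin 1 alone met 54060001 at 8.48 ± 1.59 and 54040001 at 6.38 ± 2.26 times expected, above the contacts of bin 5 with its boundaries in the balanced signal.

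**Figure D3:**
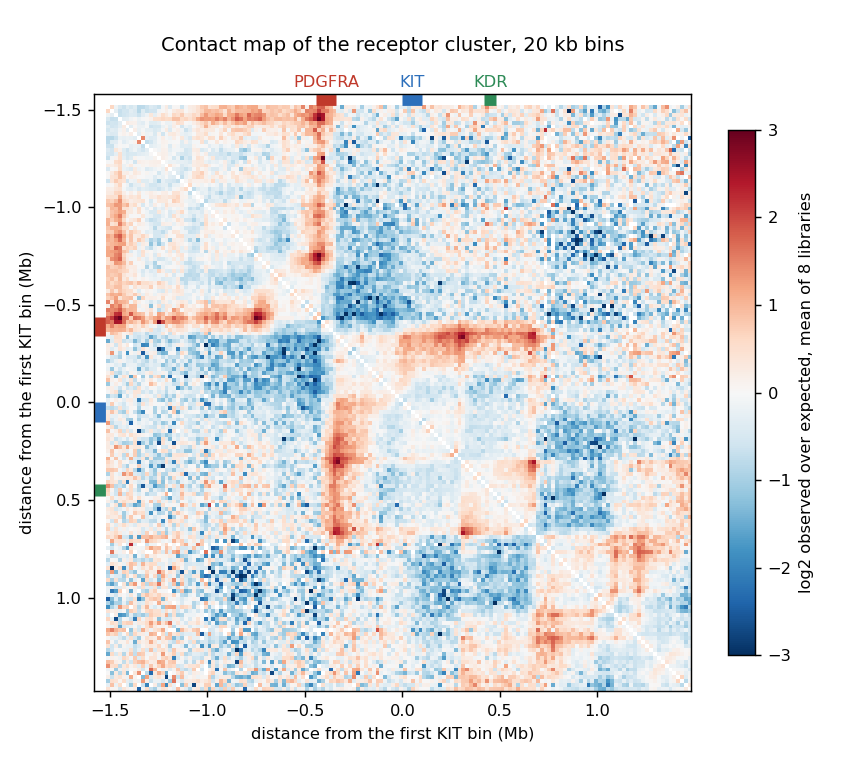
Log2 observed over expected contact of every pair of 20 kb bins from 54 to 57 Mb of chromosome 4, mean of 8 libraries, with both axes giving the distance from the first KIT bin in Mb and coloured bars marking the genes. A band of high contact runs from PDGFRA towards the region's start and a second one from its 3′ end past KIT and KDR to the boundary at 56180001, with dark spots where these bands meet boundaries.

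These ratios rest on bins with unequal numbers of contacts, which balancing evens out. PDGFRA bins 1 and 2 held a mean of 0.494 and 0.504 of the chromosome 4 median of contacts to other bins, and KDR bin 1 held 0.652. With recovered contacts that were not balanced, PDGFRA bin 1 met 54760001 at 5.27 times the expected contact, which exceeded 99.3% of pairs. For bins 2 to 5 the unbalanced contact with 54760001 was 2.22, 3.38, 2.22 and 1.46 times expected, so bin 3 stood above bin 2 and the order along the gene was no longer a steady fall. Bin 1 then met 54060001 at 5.56 and 54040001 at 3.13 times expected. PDGFRA bin 5 then met 55800001 and 56180001 at 6.49 and 9.24 times expected, above all of these contacts of bin 1.

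The 3 genes did not contact each other equally, and the pair farthest apart was highest for its distance. Over the 8 libraries PDGFRA and KDR met at 1.85 ± 0.246 times expected (SD), PDGFRA and KIT at 1.10 ± 0.0976 and KIT and KDR at 0.744 ± 0.0717. Among autosomal blocks of the same shape and distance, these values lay above 93.3%, 64.2% and 28.2% of blocks. The high contact of PDGFRA was not confined to KDR. The whole of PDGFRA met the KDR bins at 1.93, 1.81 and 1.82 times expected and the bin after KDR, at 56000001, at 1.80. It met 55800001 and 55820001, between KIT and KDR, at 2.87 and 2.80 times expected, and 56180001, beyond KDR, at 2.55. For PDGFRA-KDR, replicates 1 and 2 gave 2.13 and 2.14 after 0.25 h of digestion, 1.48 and 2.09 after 1 h, 1.75 and 1.81 after 3 h, and 1.78 and 1.63 after 12 h. For PDGFRA-KIT the libraries gave 0.987 and 1.25, then 1.06 and 1.02, then 1.21 and 1.17, and last 1.06 and 1.03 in the same order of times. For KIT-KDR they gave 0.782 and 0.808, then 0.637 and 0.706, then 0.682 and 0.717, and last 0.856 and 0.762. The ranges of the 3 pairs over all libraries did not overlap, and each library gave the same order. PDGFRA-KDR exceeded KIT-KDR by 1.31 ± 0.17 on the log2 scale and PDGFRA-KIT by 0.75 ± 0.22, and PDGFRA-KIT exceeded KIT-KDR by 0.56 ± 0.19. Each difference had a two-sided exact permutation p of 0.00781 by sign flips, the smallest that 8 libraries allow, and the Benjamini-Hochberg value over the 6 comparisons of this kind was also 0.00781. Within PDGFRA, the mean contact with KDR was high at the 3′ end and low at the 5′ end. PDGFRA bin 5 met KDR bins 1, 2 and 3 at 2.95 ± 0.907, 2.70 ± 0.588 and 2.53 ± 0.771 times expected. These rest on 1 to 12, 8 to 21 and 1 to 13 contacts per library. PDGFRA bin 1 met them at 0.596 ± 0.903, 0.883 ± 0.822 and 0.522 ± 0.978 on 0 to 3 contacts per library. For each KDR bin the library ranges of PDGFRA bins 1 and 5 overlapped. Unbalanced, bin 5 met the 3 KDR bins at 2.18, 6.53 and 2.80 times expected, so their order turned. In the balanced signal, PDGFRA bin 5 met the 5 KIT bins at 1.59 to 2.02 times expected and PDGFRA bin 1 met them at 0.347 to 0.511. These rest on 4 to 36 contacts per library for bin 5 and 0 to 5 for bin 1. The library ranges of these 2 PDGFRA bins overlapped for KIT bins 1, 2 and 5, and not for KIT bins 3 and 4. With recovered contacts not balanced the values of PDGFRA-KDR, PDGFRA-KIT and KIT-KDR were 2.19, 1.64 and 1.21, so the order held but KIT-KDR passed from below to above 1. In rank these were above 91.9%, 86.6% and 71.1% of blocks. The first sequencing run gave 1.66 ± 0.423, 1.054 ± 0.132 and 0.754 ± 0.134, and there the range of PDGFRA-KIT overlapped those of both other pairs. In that run PDGFRA-KDR, on 8 to 37 contacts per library, lay above 79.8% of 7638 blocks, whose median was 1.27. The second run had 22372 such blocks with a median of 0.950, so its rank of 93.3% is not directly comparable.

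**Figure D4:**
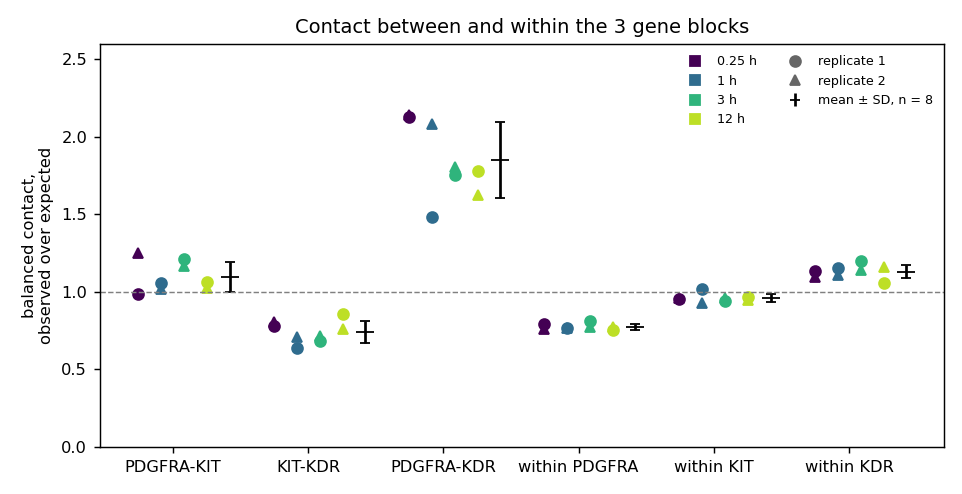
Balanced contact, observed over expected, between the 3 gene blocks and within each (off the diagonal), with a point per library (colour, digestion time; shape, replicate) and the mean ± SD of 8 libraries in black. PDGFRA-KDR lies between 1.48 and 2.14, above both other pairs, and contact within PDGFRA lies below 1 in each library.

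Contact within PDGFRA was lower than within the other 2 genes. Between different bins of PDGFRA it was 0.776 ± 0.0182 times expected (SD, n = 8), above 4.36% of autosomal blocks of its size. KIT had 0.959 ± 0.0267 and KDR 1.13 ± 0.0433, above 43.6% and 76.8% of blocks. PDGFRA was lower than KIT and than KDR in 8 of 8 libraries, by 0.31 ± 0.06 and 0.54 ± 0.04 on the log2 scale, each with an exact permutation p of 0.00781. Without the 3 bins that held under 2% of their contacts inside the bin (PDGFRA bins 1 and 2, KDR bin 1), the PDGFRA value was 0.814, above 18.98% of blocks, and the KDR value was 0.889, below that of KIT. That choice of bins was made after seeing the data. With recovered contacts not balanced, PDGFRA, KIT and KDR had 0.734, 1.83 and 1.31, above 39.7%, 91.4% and 75.01% of blocks, so KIT stood above KDR, as it did in the first run with 1.09 against 1.04. With blocks widened by 1 bin, PDGFRA, KIT and KDR had 0.820, 0.862 and 1.003, above 6.59%, 14.1% and 56.5% of blocks. PDGFRA had 0.614 in the first run, above 0.878% of blocks, and its mean was the lowest under each of these settings. With widened blocks, however, its library range overlapped that of KIT (0.760 to 0.874 against 0.822 to 0.902). It overlapped that of KDR without the bins with few inside contacts (0.748 to 0.849 against 0.799 to 0.946). In the first run it also overlapped that of KDR (0.515 to 0.795 against 0.747 to 1.21).

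PDGFRA sent more of its contacts to middle distances than nearly all of the genome. Over the 8 libraries together, 49.3% of its contacts reached bins of chromosome 4 from 200 kb to 3 Mb away, more than 99.93% of 26298 autosomal windows of 5 bins, whose median was 31.2%. It had 22.5% within 200 kb against a median of 30.6%, and 2.66% of windows had a lower share. Its share at middle distances was 46.2% ± 1.10 at 0.25 h and 52.4% ± 0.324 at 12 h (SD, n = 2), against 29.3% and 32.6% over all autosomal bins. KIT had 28.6% and KDR 30.05% at these distances, above 35.0% and 42.4% of windows. In trans, between chromosomes, PDGFRA had 8.00% of its contacts, KIT 10.8% and KDR 10.4%, where the medians of windows were 11.8% to 11.9%. By stretches of the region, PDGFRA met the interval between KIT and KDR at 1.89 ± 0.0875 times expected and its own flank up to KIT at 0.621 ± 0.0244. KIT met the interval up to PDGFRA at 1.16 ± 0.0160 and the stretch before PDGFRA at 0.707 ± 0.0210. On its other side it met the interval up to KDR at 0.903 ± 0.0239 and the stretch beyond KDR at 0.830 ± 0.0421, so it was also below 1 there. KDR met the 4 stretches at 0.899 to 1.01 times expected.

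The strongest partners of KIT and KDR at least 100 kb away lay at or just behind the 3′ end of PDGFRA. For KIT these were the bins at 55180001, 55200001 and 55220001, with 2.38 ± 0.251, 2.09 ± 0.217 and 2.05 ± 0.277 times expected (SD, n = 8). For KDR they were PDGFRA bins 5 and 4, at 55160001 and 55140001, with 2.73 ± 0.533 and 2.53 ± 0.553, and 55180001 with 2.28 ± 0.366. The lowest library of each stood at 1.63 or above. The partner bin 55180001 adjoins PDGFRA bin 5 and was shared by KIT and KDR. Unbalanced values of single bins moved by over 1.5 times, as for KDR bin 2, which went from 2.70 to 6.53 with 55160001 and from 2.37 to 5.14 with 55140001. KIT bin 4 went from 2.00 to 5.38 with 55180001, and KIT bin 3 from 1.77 to 0.995 with 55220001.

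The mean number of contacts per bin differed between the 3 genes, and single bins differed more within each gene. Relative to the median bin of chromosome 4, the mean contacts per bin off the diagonal were 0.899 to 0.940 for PDGFRA, 1.36 to 1.48 for KIT and 1.07 to 1.18 for KDR over the 8 libraries, and these ranges did not overlap. KIT bins 4 and 5 stood at 1.89 and 1.73 times that median, KDR bin 2 at 1.78 and PDGFRA bin 5, the highest of its gene, at 1.26. PDGFRA bin 1 held 50 contacts inside the bin in all 8 libraries together, 0.786% of its contacts, and PDGFRA bin 2 and KDR bin 1 held 1.41% and 1.74%. At the other extreme KIT bin 4 held 19% inside the bin, above 97.7% of bins, and KDR bin 2 held 18.04%.

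Contacts inside the gene bins fell with digestion time, as they did over the genome. In the KIT gene the share of contacts inside a bin was 19.3% ± 2.56 after 0.25 h of digestion, 16.1% ± 0.421 after 1 h, 14.8% ± 0.172 after 3 h and 8.45% ± 0.211 after 12 h (SD, n = 2). KDR went from 16.3% ± 2.48 to 7.60% ± 0.357 and PDGFRA from 10.5% ± 1.71 to 5.37% ± 0.0745, while all autosomal bins together went from 12.6% ± 1.72 to 6.16% ± 0.0730. In KIT bin 4 the replicates stood at 23.96% and 29.7% inside after 0.25 h of digestion and at 22.4% and 21.1% after 1 h. After 3 h they stood at 20.3% and 19.04%, and after 12 h at 11.2% and 11.7%. Both 12 h values lay below those of every other time. Between 0.25 and 12 h the log2 ratio of contacts inside to contacts outside the bin fell by 1.5 in KIT bin 4 (limma, adjusted p = 4.38e-05), by 1.54 in PDGFRA bin 3 (adjusted p = 6.08e-05) and by 1.38 in KDR bin 3 (adjusted p = 0.000335). It fell in 10 of 13 gene bins past an adjusted p of 0.05, where 64.7% of 137197 bins did so (64.9% passed in either direction), and the median difference was -0.95 over the 13 gene bins and -0.82 over all bins. The 3 bins that did not pass were PDGFRA bins 1 and 2 and KDR bin 1, at -0.60, -0.13 and 0.25, which held 3 to 35 inside contacts per library. With a pseudocount of 5 contacts PDGFRA bin 1 passed as well (-0.90, limma, adjusted p = 0.0331), for 11 of 13 gene bins against 79.6% of all bins. That bin held a mean of 5 inside contacts at 0.25 h and 8 at 12 h, and 504 and 1208.5 to other bins. Adding 5 contacts raises the ratio more in shallower libraries where inside contacts are few, so this setting cannot decide whether such bins fell. In the first run 6 of 8 gene bins of 50 kb passed by limma, against 68% of all bins. The fall lay mainly in the last step: 12 h against 3 h passed in 9 of 13 gene bins against 56.8% of all bins, whereas 1 h against 0.25 h and 3 h against 1 h passed in 0 gene bins and in 0 of all bins (limma, 1 gene bin at an unadjusted p under 0.05 in each step, against 19.8% and 3.41% of all bins). The call of PDGFRA bin 5, at -0.41, was lost without 0.25 h replicate 2 (-0.32, adjusted p = 0.0679), without 12 h replicate 1 (-0.44, adjusted p = 0.0768) and without 12 h replicate 2 (-0.37, adjusted p = 0.127), and where only 0.25 and 12 h were fitted (limma, adjusted p = 0.0767).

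**Figure D5:**
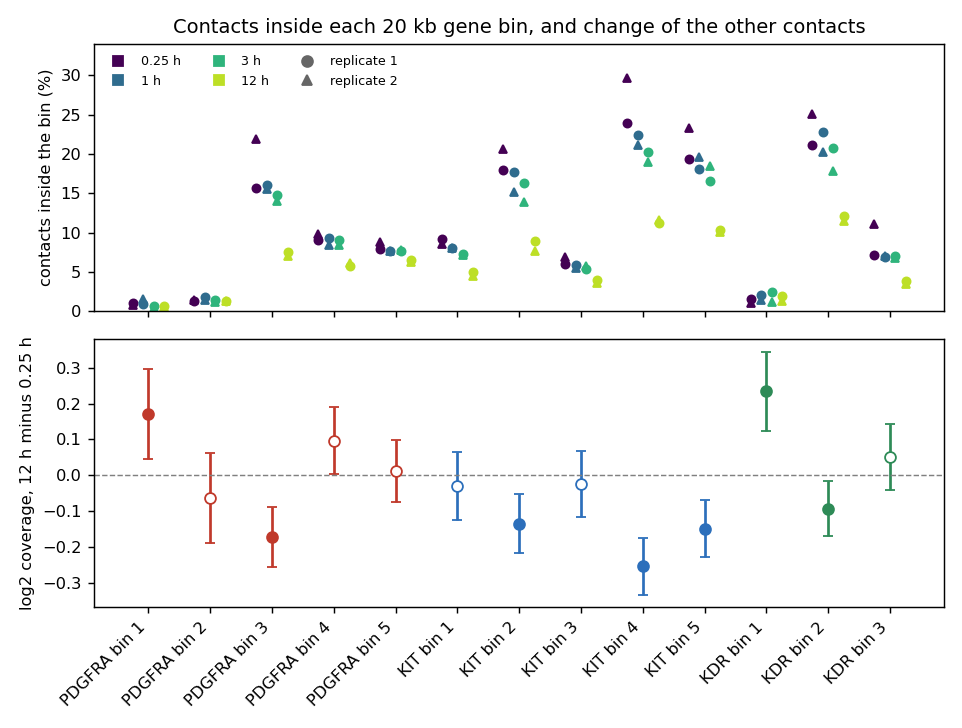
Upper panel, percentage of each gene bin's contacts that lie inside the bin, with a point per library (colour, digestion time; shape, replicate); lower panel, difference in log2 contacts to other bins relative to the library's total, 12 h minus 0.25 h, with 95% intervals from limma and filled points where the adjusted p is under 0.05. KIT bin 4 falls from 26.8% at 0.25 h to 11.4% at 12 h, and it has the lowest difference below, -0.25.

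The remaining contacts of single bins moved by small amounts in both directions. Contacts to other bins, relative to the library's total, differed between 12 and 0.25 h in 7 of 13 gene bins (limma, adjusted p under 0.05), 2 higher and 5 lower, where 55.8% of 137197 bins differed, 35% higher and 20.9% lower. The split over all bins depended on the scaling, since median-of-ratios size factors gave 37943 bins higher and 38542 lower. KIT bin 4 fell by 0.25 on the log2 scale (SE 0.04, adjusted p = 8.54e-06), PDGFRA bin 3 fell by 0.17 (adjusted p = 0.00107), KIT bin 5 fell by 0.15 (adjusted p = 0.00237), KIT bin 2 by 0.14 and KDR bin 2 by 0.09. KDR bin 1 rose by 0.23 (SE 0.05, adjusted p = 0.000810) and PDGFRA bin 1 by 0.17 (adjusted p = 0.0196), and these 2 bins were among the 3 with few contacts inside the bin. The 6 bins that did not pass lay between -0.06 and 0.10. From 3 to 12 h, 1 of 13 gene bins passed, KIT bin 4 at -0.19, against 38.5% of all bins (24.2% higher, 14.3% lower). From 0.25 to 1 h and from 1 to 3 h 0 gene bins passed by limma, and 2 and 0 had an unadjusted p under 0.05, against 9.93% and 5.87% of all bins. The calls of PDGFRA bin 3, KIT bins 4 and 5 and KDR bin 1 held without any 1 library. Without 12 h replicate 2, 4 of 13 bins passed, against 40.2% of all bins, and KIT bin 2 was at -0.12 (adjusted p = 0.0665). PDGFRA bin 1 was at 0.12 without 0.25 h replicate 1 (adjusted p = 0.130), at 0.16 without 12 h replicate 1 (adjusted p = 0.121) and at 0.19 without 12 h replicate 2 (adjusted p = 0.0687). KDR bin 2 was at -0.08 without 0.25 h replicate 2 (adjusted p = 0.0828), at -0.07 without 12 h replicate 1 (adjusted p = 0.262) and at -0.12 without 12 h replicate 2 (adjusted p = 0.0586). PDGFRA bin 4, at 0.10 in all libraries, passed without 0.25 h replicate 1 (0.16, adjusted p = 0.00355). PDGFRA bin 4 also passed with the replicate number as a block (limma, adjusted p = 0.0405), with cis contacts alone (0.12, adjusted p = 0.0342) and with inside contacts included (0.14, adjusted p = 0.0213). PDGFRA bin 1 lost its call with median-of-ratios size factors (0.13, adjusted p = 0.0830), and KDR bin 2 where only 0.25 and 12 h were fitted (adjusted p = 0.0707). With inside contacts included the called differences were larger in size, at -0.43 in KIT bin 4, -0.24 in KIT bin 5, -0.22 in KIT bin 2, -0.26 in PDGFRA bin 3, 0.27 in PDGFRA bin 1, -0.19 in KDR bin 2 and 0.34 in KDR bin 1. In the first run, 0 of 8 gene bins of 50 kb passed by limma, and 2 did at an unadjusted p under 0.05, against 27% and 38.5% of all 53490 bins of that run.

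In the balanced signal no difference between digestion times was detected around the genes, whereas unbalanced contacts gave some calls. Insulation scores of the 150 bins of the region differed between 12 and 0.25 h in 0 bins by limma, with 8 at an unadjusted p under 0.05, where 0% of 134553 bins were called and 7.91% had an unadjusted p under 0.05. The differences lay between -0.14 and 0.20. The PDGFRA boundary scored -1.18 ± 0.26 after 0.25 h of digestion, -1.19 ± 0.0015 after 1 h, -1.16 ± 0.04 after 3 h and -1.20 ± 0.02 after 12 h (SD, n = 2). The last and first times had a difference of -0.02 with a 95% interval from -0.24 to 0.20. With recovered contacts that were not balanced, 40 of 150 bins were called, as were 55536 of 134553 bins in all, or 41.3%. The 3 KDR bins were among them, higher at 12 h by 0.15 to 0.27, and so was KIT bin 3, lower by a difference of -0.17, while 0 PDGFRA bins were called (limma, lowest adjusted p 0.316). No gene pair was called by limma, and 0 of 3 had an unadjusted p under 0.05. Of autosomal blocks shaped like PDGFRA-KIT, KIT-KDR and PDGFRA-KDR, 0% were called and 5.54%, 5.57% and 5.33% had an unadjusted p under 0.05. PDGFRA-KDR had 2.14 ± 0.00882 at 0.25 h and 1.71 ± 0.108 at 12 h, a log2 difference of -0.31 with a 95% interval from -0.83 to 0.20 (limma, adjusted p = 0.944). The direction turned without the bins with few inside contacts (0.33, adjusted p = 0.947) and in the first run (0.24, adjusted p = 0.954). PDGFRA-KIT differed by -0.08 (95% interval -0.39 to 0.23) and KIT-KDR by 0.02 (95% interval -0.30 to 0.34). Against log2 hours PDGFRA-KDR had Spearman's rho -0.634 (exact permutation p = 0.110) and Pearson's r -0.641 (p = 0.0825 by the same exact permutation) over 8 libraries. The Benjamini-Hochberg value of rho over the 3 pairs was 0.331, and r was -0.622 without the 12 h libraries and -0.178 without those at 0.25 h, so the trend rested on the 0.25 h libraries. KIT-KDR had rho 0.0488 (exact permutation p = 0.946), with r 0.829 without the 0.25 h libraries and -0.713 without those at 12 h. Its libraries at 0.25 and 12 h all lay above those at 1 and 3 h, but neither step was called: 1 h minus 0.25 h was -0.22 (limma, adjusted p = 0.738) and 12 h minus 3 h was 0.18 (adjusted p = 0.99989). Contact within PDGFRA, KIT and KDR differed by -0.02, 0.00124 and -0.01 on the log2 scale. By limma 0 of 3 were called and 0 had an unadjusted p under 0.05, against 0% and 14.6%, 14.8% and 14.1% of blocks of their size. With recovered contacts not balanced, contact within KIT fell by 0.20 (limma, adjusted p = 0.0160), a setting in which 49.1% of all blocks of this size were called, 16% lower.

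All bins of the region lay on the side of chromosome 4 that had relatively more contacts with gene-rich chromosomes. The 30 bins of 100 kb from 54 to 57 Mb had a positive first eigenvector of the chromosome 4 contact matrix in 8 of 8 libraries, with the sign set so that it rises with the ratio of trans contacts to chromosomes 16, 17, 19, 20 and 22 over those to 13 and 18. The bins of PDGFRA stood above 85.4% and 79.3% of chromosome 4 bins, those of KIT above 92.4% and 83.8% and that of KDR above 80.4%. Before its sign was set, the first eigenvector had r -0.815 with the trans ratio and -0.457 with the chromosome arm. The whole region lies on the long arm, and how far the arm shared in its sign was not tested. In trans preference itself the 5 gene bins lay above 64.0% to 73.6% of 23109 ranked bins, on mean log2 differences from the median bin of 0.21 to 0.41. The ranked bins came from chromosome X and the autosomes other than 13, 16, 17, 18, 19, 20 and 22. The lowest single libraries of the PDGFRA and KDR bins lay below 0. Between 12 and 0.25 h 0 of 5 were called by limma, where 0% of 23109 bins were called and 8.12% had an unadjusted p under 0.05. Of the gene bins 1 did, that of KIT at 55600001, with an unadjusted p of 0.0403 by limma and a difference of 0.50, 95% interval from 0.03 to 0.98. KIT ends at 55.607 Mb, so this bin is mostly sequence behind the gene, and the KIT bin at 55500001 differed by 0.05. The PDGFRA bin at 55000001 likewise holds its gene only from 55.095 Mb.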

How the data were processed

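The 16 deposited matrices held balanced contact signal, 8 in 20 kb bins (second run) and 8 in 50 kb bins (first run). Reads were processed by the authors with HiC-Pro 2.11.1 and Bowtie2 2.3.4.1 on hg19, per the submitters' processing notes. In the second run 89.0% to 89.1% of bins held values, and the balancing tool and bin filter are not given in the sources used here. Each deposited signal is a whole number of contacts times a factor for each bin. The factors were found from pairs with 1 contact, and all listed pairs came within 0.01 of a whole number. The step recovered 100% of 142637 simulated pairs. Recovered contacts gave coverage (minimum mean 100 contacts), inside ratios (pseudocount 0.5) and trans preference (100 kb bins, minimum 20 contacts), and the balanced signal gave insulation, observed over expected and direction.

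Differences between times were fitted with limma 3.58.1 in R 4.3.3 over all features of a kind, all 4 times in 1 fit. Blocks came from the autosomes, and single bins from the autosomes and chromosome X. Trans preference left out bins of chromosomes 13, 16, 17, 18, 19, 20 and 22. Blocks of the same shape needed a mean of 10 contacts and 60% of bins present, and 0.1 was added to observed over expected. P-values were adjusted by Benjamini-Hochberg over all features, with a threshold of 0.05. The fits were tested on simulated data. Contacts are PCR products without molecular identifiers, so counts are not independent molecules. Differences between gene pairs were tested by sign flips over libraries. Boundaries were minima with a prominence of at least 0.2.

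The members and lists were chosen with earlier results of these data known. The text names the 3 genes, their 13 bins, the boundaries of the region and the 3 strongest partner bins of each gene that exceeded 1 in all libraries. Bins along the gene, direction and boundary pairs were described after their values were seen. Deviations of same-numbered libraries correlated in coverage, with r from 0.110 to 0.254 over 6 pairs of times, though no label says that they were paired. In inside ratios r ran from 0.0171 to 0.129, so its highest value passed the lowest of coverage. In insulation r ran from -0.00271 to 0.0164. Replicate 1 was deeper than replicate 2 at each time, and whether depth shared in these correlations was not tested. Alternatives were other scalings, pseudocounts, windows, filters and block sizes, the unbalanced contacts, the first run, the replicate block, only the end times, and each library left out. Ligands and related receptors elsewhere in the genome were not analysed here, since no hg19 annotation was used.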

Additional observations from a re-analysis of the deposited data

How the results depend on the processing

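Values are log2 differences, 12 h minus 0.25 h, unless stated. Of the gene bins, 4 to 7 of 13 were called for coverage with 1 library left out, where 40.2% to 55.7% of all bins were, and 0 of 8 in the first run, where 27% were. With recovered contacts not balanced, 40 bins of the region were called for insulation, as were 41.3% of all bins. No alternative called a gene pair. Several differences changed sign, and of these contact within KIT was called with recovered contacts (limma, adjusted p = 0.0160), as were 49.1% of all blocks of its size. KIT-KDR was -0.0499 with recovered contacts, -0.0544 with blocks widened by 1 bin and -0.15 without the bins with few inside contacts, an alternative chosen after seeing the data, and 0.37 in the first run. PDGFRA-KDR, at -0.31 in all libraries, was 0.33 without those bins and 0.24 in the first run. With 1 library left out, PDGFRA-KIT lay between -0.235 and 0.0751 and KIT-KDR between -0.0547 and 0.0955. Contact within PDGFRA was 0.0293 without the bins with few inside contacts, -0.15 with widened blocks and -0.28 in the first run. Contact within KIT was -0.20 with recovered contacts, -0.00215 with widened blocks and -0.22 in the first run. Contact within KDR was 0.0637, 0.0433 and 0.33 under these settings and 0.0725 without the bins with few inside contacts. With 1 library left out these lay between -0.0449 and 0.00932, -0.00909 and 0.0116, and -0.0739 and 0.0494 for PDGFRA, KIT and KDR. Levels of observed over expected moved to 1.64, 1.21 and 2.19 for PDGFRA-KIT, KIT-KDR and PDGFRA-KDR with recovered contacts. PDGFRA-KIT was 1.21 with widened blocks, and without the bins with few inside contacts PDGFRA-KIT was 1.37 and PDGFRA-KDR 2.19.

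In coverage, uncalled bins changed sign: PDGFRA bin 2 at 0.0381, KIT bin 1 at 0.00984 and KIT bin 3 at 0.0384 with inside contacts included, PDGFRA bin 5 at -0.0343 with median-of-ratios size factors. With 1 library left out PDGFRA bin 5 lay between -0.00801 and 0.0319 and KIT bin 3 between -0.0467 and 0.00016. In the inside ratio KDR bin 1 was -0.15 with a pseudocount of 5, which raises the ratio more in shallower libraries. The bin lay between -0.0334 and 0.535 with 1 library left out. The replicate block called 8 gene bins for coverage, 10 for the inside ratio and 0 bins of the region for insulation, against 60.4%, 65.9% and 0% of all bins, and it changed no other call than that of PDGFRA bin 4. PDGFRA-KDR held 38 to 118 contacts per library, which limits its precision. The causes were not tested.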
